A study of Mus musculus with 32 samples.

Results

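The genes described here are 32 of bile acid synthesis, transport and xenobiotic sensing in mouse liver, given as a list by name, which was drawn up with earlier results of these data known. They hold 12 enzymes of synthesis and conjugation, 4 nuclear receptors, 6 uptake transporters, 6 proteins of the canalicular membrane and 4 basolateral exporters. All 32 had a probe, 31 were among the 21288 genes tested, and the exporter subunit Slc51a was not tested because its signal was above background on too few arrays. Male C57/BL6 mice, 8 weeks old at the start, had chow (C) or a methionine- and choline-deficient diet (MCD) for 3 weeks, with saline or a GLP-1 receptor agonist (Fc-GLP-1) over the last 2 weeks. Livers after 70 percent partial hepatectomy (PH) were taken 2 weeks later, on the same diet and treatment. The study's legends put the treated livers from before PH down to tissue taken out at the surgery, in mice of the same group. Sample names of the untreated groups keep their stem and number over both times, and those of the treated groups their closing numbers, but no label says that a shared number marks 1 mouse. All arrays were fitted as separate mice. The deposited labels call the drug Fc-GLP-1 in one field and a dual GLP-1 and glucagon receptor agonist in another. The first field also names a dual agonist for C+Fc-GLP-1 after PH, and the dose in the labels is not that of the study. Which agent and dose each treated group had cannot be told from these, and the study's name Fc-GLP-1 is used for all. Of the 8 groups, 4 are from before and 4 from after PH: C and MCD are untreated, C+Fc-GLP-1 is chow with the drug and M+Fc-GLP-1 the MCD diet with the drug, with 4 arrays in each group and 1 liver on each array.

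Hepatocytes turn cholesterol into bile acids by a classic route that starts with Cyp7a1 and an alternative route that starts with Cyp27a1, couple them to taurine or glycine, and move them from sinusoidal blood into the canaliculus. The bile acid receptor FXR (Nr1h4) lowers synthesis and uptake and raises export, in part through the repressor SHP (Nr0b2), and PXR (Nr1i2) and CAR (Nr1i3) act on xenobiotic enzymes and transporters. In mouse liver Cyp7b1 and Slco1a1 are known to run higher in males and Cyp39a1 and Slco1a4 higher in females.

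Values are log2 signal relative to the 75th percentile of each array, so that 0 is the level of that percentile, and all tests are limma with Benjamini-Hochberg adjustment at 0.05. Of 10 hepatocyte markers 9 were well above background on all 32 arrays, and Pck1 was on 31, its other spot being flagged. C and MCD before PH shared a slide, the 2 treated groups before PH shared another, the 2 treated groups after PH shared 1 more, and C and MCD after PH each had a slide of their own read on another scanner. Every drug comparison, every comparison over time and MCD versus C after PH therefore hold slide differences that cannot be told apart from the group, and those with an untreated group after PH hold the scanner as well, except that the 2 untreated groups after PH share it. Additive slide effects cancel in the 2 interactions. Where a call is said to end without an array, some of the 7 settings may end it too, and the range over alternatives covers both.

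One array stood apart: C after PH replicate 1 had a mean correlation of 0.947 with its own group, the lowest of the 32 arrays. Its male-biased genes averaged 1.84, against 6.65, 6.66 and 5.96 on the other 3 arrays of its group, and its female-biased genes averaged -0.36, against -2.62, -2.98 and -2.87. Cyp8b1 (-5.00) and Slco1a1 (-6.53) were not well above background on it, and Cyp7b1 read 2.12 there. It was kept, and results that rest on it are given with and without it. Since all 8 groups share 1 limma fit, it also widens the error of such genes in every comparison, the SE of Cyp8b1 being 1.02 with it and 0.41 without.

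**Figure D1:**
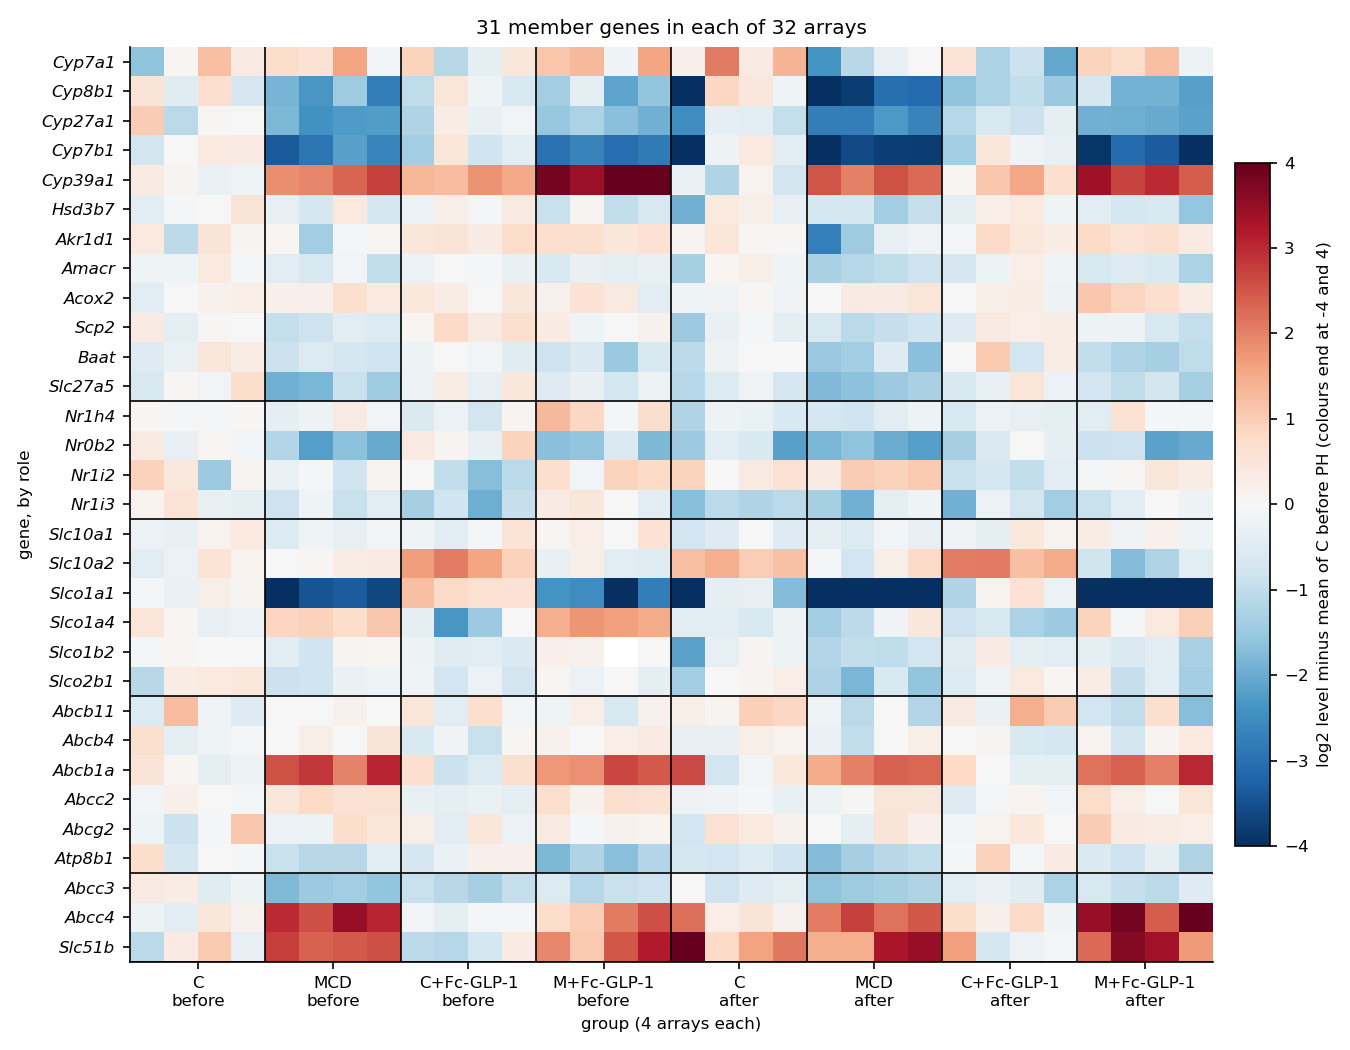
Each member's log2 signal on each of the 32 arrays, less its mean in C before PH. The signal of Slco1a1 itself, relative to the 75th percentile, ranged from -6.53 to 5.24 over the arrays.

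RefSeq promoters, the 250 bases before the transcription start in build GRCm38.p6, were at hand for 24 of the 32 members and are missing for Cyp7a1, Cyp7b1, Cyp39a1, Amacr, Baat, Slc27a5, Atp8b1 and Abcc3. They are shown for 3 members that were called in MCD versus C before PH and have a match, with matches in capitals. Other members with larger changes than Nr0b2 are not shown, and the motifs were picked after the promoters were scanned. AGGTCA is a nuclear receptor core site, CAAGGCCA an NR5A site and TTCNNNGAA a STAT site, each matched on both strands with overlaps allowed.
Slco1a1: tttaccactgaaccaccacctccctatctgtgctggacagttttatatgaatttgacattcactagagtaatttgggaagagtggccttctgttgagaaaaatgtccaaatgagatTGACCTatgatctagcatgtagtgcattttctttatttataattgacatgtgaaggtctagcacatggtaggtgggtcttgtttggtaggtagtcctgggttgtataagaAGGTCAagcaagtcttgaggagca
Nr0b2: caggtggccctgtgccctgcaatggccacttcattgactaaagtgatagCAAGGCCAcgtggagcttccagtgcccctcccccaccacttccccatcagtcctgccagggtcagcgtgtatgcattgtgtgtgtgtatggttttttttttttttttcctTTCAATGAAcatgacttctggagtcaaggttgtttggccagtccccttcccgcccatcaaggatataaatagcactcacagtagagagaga
Slc51b: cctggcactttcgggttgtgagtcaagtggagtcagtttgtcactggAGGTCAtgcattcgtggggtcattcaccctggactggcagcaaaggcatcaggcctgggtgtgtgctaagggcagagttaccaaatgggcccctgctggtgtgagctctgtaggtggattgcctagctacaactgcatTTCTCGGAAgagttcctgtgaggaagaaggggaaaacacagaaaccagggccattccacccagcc
Slco1a1 (chr6:141946963-141947212, minus strand) has AGGTCA at -24 and, on the other strand, at -134. Nr0b2 (chr4:133553126-133553375, plus strand) has CAAGGCCA at -201 and TTCNNNGAA at -91. Slc51b (chr9:65422774-65423023, minus strand) has AGGTCA at -203 and TTCNNNGAA at -65. Counting a gene once however many promoters it has, AGGTCA was found for 11 of the 24 members, against 15.8 percent of the 27025 genes in the table, and TTCNNNGAA for 6, against 8.13 percent. CAAGGCCA was found for 2 members (Nr0b2 and Slc51a), against 2.32 percent of genes.

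The diet moved the members most. In MCD versus C before PH, 13 of 31 members were called, 5 higher and 8 lower, where 26.3 percent of all genes tested were called, 10.9 percent higher and 15.5 percent lower. The member median was -0.28, against -0.12 over all genes. Centring arrays on the median moved the median of all genes by 0.37 in this comparison and turned the member split to 7 higher and 6 lower, with no called member changing sign. In MCD versus C after PH, 12 were called, 3 higher and 9 lower, where 12.2 percent of all genes were called, 6.07 percent higher and 6.11 percent lower (medians -0.51 and -0.03). That count was 17 without C after PH replicate 1, and 6, 7 and 6 without C after PH replicate 2, C after PH replicate 4 and MCD after PH replicate 2. It was 7 with no filter on dim probes and 2 with only the arrays compared. In M+Fc-GLP-1 versus C+Fc-GLP-1 before PH, 15 were called, 9 higher and 6 lower, where 10.4 percent of all genes were called, 5.37 percent higher and 5.01 percent lower (medians 0.14 and 0.04), and the deposited values gave 7. The same groups after PH gave 13 calls, 6 higher and 7 lower, where 12.8 percent of all genes were called, 6.19 percent higher and 6.66 percent lower (medians -0.16 and -0.01). No 2 of these 4 comparisons share an array, though all share 1 error estimate. Cyp27a1, Cyp7b1, Cyp39a1, Slco1a1, Abcb1a and Abcc4 were called in all 4, each in the same direction throughout.

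**Figure D2:**
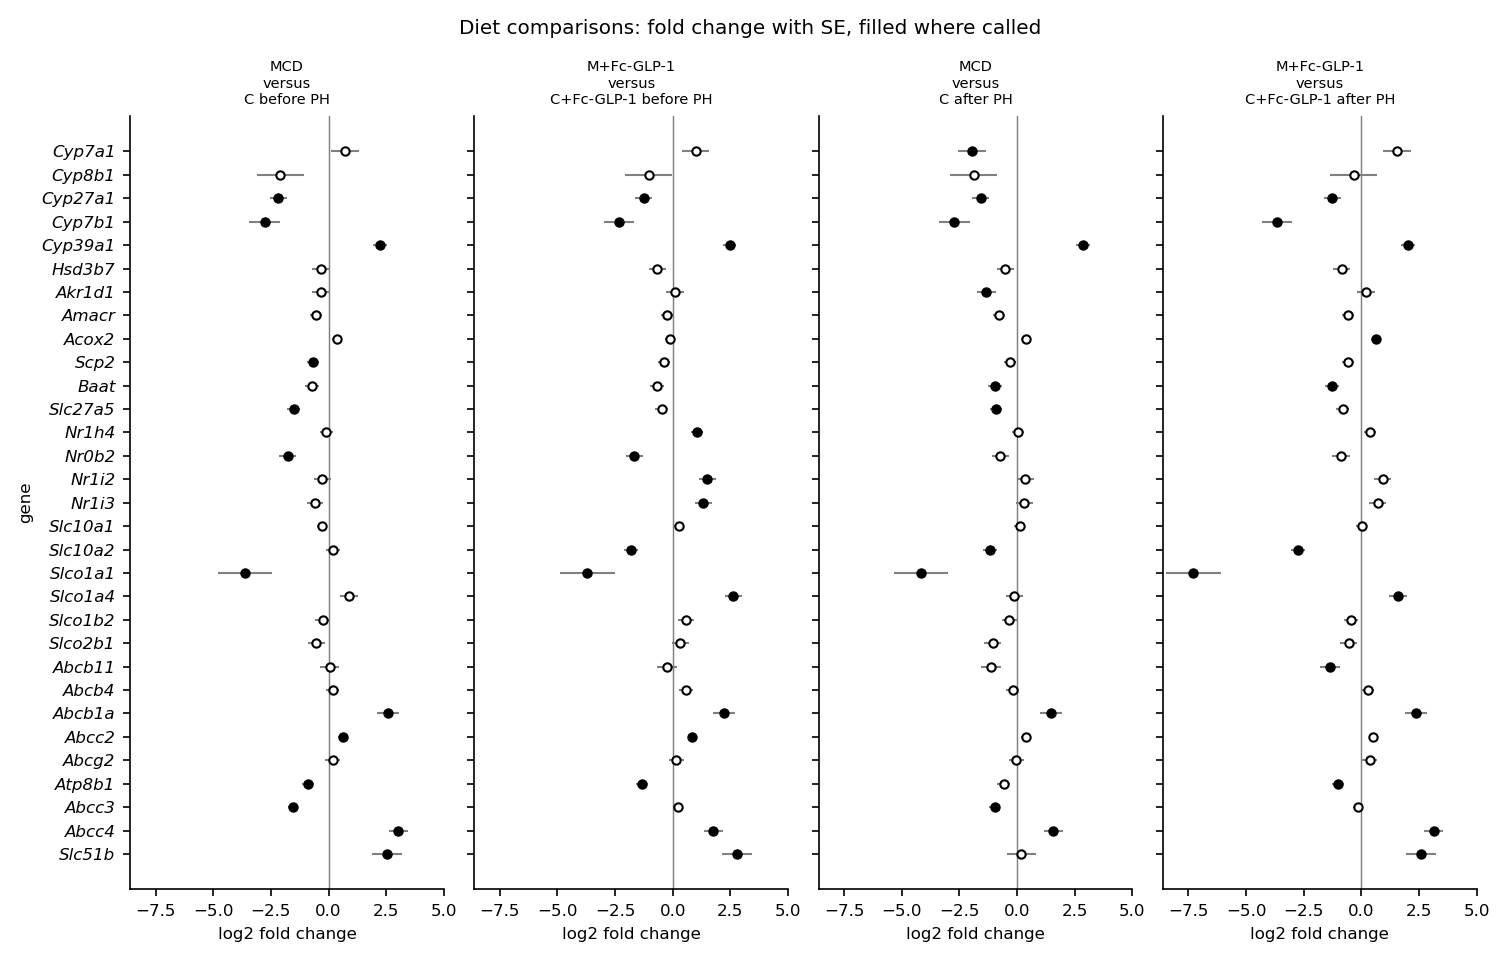
Log2 fold changes of the members in the 4 comparisons of MCD diet with chow. Slco1a1 stood at -3.61, -4.16, -3.71 and -7.28, in the order MCD versus C before and after PH, then with Fc-GLP-1 before and after PH. The value for MCD versus C after PH is not exact, as its probe was not well above background on 1 array of each group.

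Of the 12 enzymes, 5 were called in MCD versus C before PH, 1 higher and 4 lower, and 7 after PH, 1 higher and 6 lower. Of all genes 26.3 percent were called before PH, 10.9 percent higher and 15.5 percent lower. After PH 12.2 percent were called, 6.07 percent higher and 6.11 percent lower. Cyp27a1, the sterol 27-hydroxylase that opens the alternative route, read 5.08, 2.98, 4.12 and 4.10 in C, 2.29, 1.65, 1.79 and 1.83 in MCD, 2.87, 4.38, 3.78 and 3.95 in C+Fc-GLP-1 and 2.55, 2.81, 2.41 and 2.16 in M+Fc-GLP-1 before PH. After PH it read 1.59, 3.72, 3.66 and 3.12 in C, 1.30, 1.29, 1.77 and 1.41 in MCD, 2.94, 3.46, 3.22 and 3.69 in C+Fc-GLP-1 and 2.16, 2.12, 2.07 and 1.93 in M+Fc-GLP-1. Its MCD livers lay below all chow livers in each pair of groups but MCD versus C after PH, where the lowest chow liver, C replicate 1, lay among them. Its log2 fold change was -2.18 (adjusted p 0.00012) for MCD versus C before PH, -1.58 (adjusted p 0.00585) for MCD versus C after PH, -1.26 (adjusted p 0.0291) for M+Fc-GLP-1 versus C+Fc-GLP-1 before PH and -1.26 (adjusted p 0.0243) for the same groups after PH. For MCD versus C after PH it was -2.06 without C after PH replicate 1 (adjusted p 8.15e-05), and the call was lost with only the arrays compared (adjusted p 0.0586, range over alternatives 8.15e-05 to 0.0586). The fall in M+Fc-GLP-1 versus C+Fc-GLP-1 before PH lost its call without any 1 of C+Fc-GLP-1 replicates 2, 3 and 4 or M+Fc-GLP-1 replicates 1, 3 and 4 (adjusted p up to 0.114, range over alternatives 0.00763 to 0.114). After PH it was lost without C+Fc-GLP-1 replicate 2 or 4 or M+Fc-GLP-1 replicate 4 (up to 0.0761, range 0.00621 to 0.0761).

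Cyp7b1, the oxysterol 7-alpha-hydroxylase of the alternative route, read 5.78, 6.52, 6.92 and 6.86 in C, 3.17, 3.59, 4.34 and 3.88 in MCD, 5.14, 7.01, 5.72 and 6.07 in C+Fc-GLP-1 and 3.53, 3.86, 3.49 and 3.69 in M+Fc-GLP-1 before PH. After PH, the Cyp7b1 readings were 2.12, 6.31, 6.90 and 6.06 in C, 2.15, 2.90, 2.76 and 2.71 in MCD, 5.16, 6.96, 6.39 and 6.19 in C+Fc-GLP-1 and 2.64, 3.45, 3.18 and 0.76 in M+Fc-GLP-1. Chow livers were high and MCD livers low with no overlap, except that C after PH replicate 1 lay just under the MCD livers. For Cyp7b1 the log2 fold change was -2.77 (adjusted p 0.0027) for MCD versus C before PH, -2.72 (adjusted p 0.00663) for MCD versus C after PH, -2.34 (adjusted p 0.0203) for M+Fc-GLP-1 versus C+Fc-GLP-1 before PH and -3.67 (adjusted p 0.000289) for the same groups after PH. Without C after PH replicate 1 the value for MCD versus C after PH was -3.79 (adjusted p 2.24e-06), and with only the arrays compared the call was lost (adjusted p 0.0961, range over alternatives 2.24e-06 to 0.0961). Without C+Fc-GLP-1 before PH replicate 2 the call under the drug before PH ended (adjusted p 0.0822, range 0.000678 to 0.0822).

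Cyp39a1, the 24-hydroxycholesterol 7-alpha-hydroxylase, went the other way. Its values were 2.61, 2.37, 2.00 and 2.11 in C, 4.13, 4.22, 4.60 and 5.02 in MCD, 3.59, 3.51, 4.08 and 3.80 in C+Fc-GLP-1 and 6.12, 5.71, 6.63 and 6.37 in M+Fc-GLP-1 before PH. In the livers after PH they were 1.99, 1.07, 2.43 and 1.53 in C, 4.79, 4.28, 4.82 and 4.55 in MCD, 2.36, 3.37, 3.82 and 2.95 in C+Fc-GLP-1 and 5.67, 4.99, 5.25 and 4.70 in M+Fc-GLP-1. Every MCD liver lay above every chow liver on the same treatment at the same time, and M+Fc-GLP-1 before PH held the 4 highest values of all. Its log2 fold change was 2.22 (adjusted p 5.07e-06) for MCD versus C before PH, 2.85 (adjusted p 1.82e-07) for MCD versus C after PH, 2.46 (adjusted p 1.66e-06) for M+Fc-GLP-1 versus C+Fc-GLP-1 before PH and 2.03 (adjusted p 2.62e-05) for the same groups after PH. All 4 calls held under each alternative tried. It was also higher with Fc-GLP-1, by 1.47 (adjusted p 0.0107) in C+Fc-GLP-1 versus C before PH, 1.37 (adjusted p 0.0135) after PH, and 1.71 (adjusted p 0.00117) in M+Fc-GLP-1 versus MCD before PH, each across slides. The chow call before PH was lost with normexp, the deposited values and only the arrays compared (adjusted p 0.0509 with the last, range over alternatives 0.00235 to 0.278). The call in M+Fc-GLP-1 versus MCD was lost with normexp and with the deposited values (range over alternatives 0.000634 to 0.0678). The chow call after PH ended without C after PH replicate 2 or C+Fc-GLP-1 after PH replicate 3 (adjusted p up to 0.0715, range over alternatives 0.00891 to 0.127), and its 2 groups overlapped.

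Slc27a5, the bile acid CoA ligase that readies bile acids for conjugation, read 8.37, 9.05, 8.90 and 9.70 in C, 7.10, 7.17, 8.11 and 7.59 in MCD, 8.79, 9.31, 8.67 and 9.45 in C+Fc-GLP-1 and 8.50, 8.70, 8.29 and 8.81 in M+Fc-GLP-1 before PH. After PH, Slc27a5 stood at 7.86, 8.47, 8.88 and 8.32 in C, 7.26, 7.38, 7.55 and 7.71 in MCD, 8.41, 8.72, 9.49 and 8.77 in C+Fc-GLP-1 and 8.25, 7.98, 8.27 and 7.69 in M+Fc-GLP-1. MCD livers were below C livers with no overlap at both times, and the treated groups overlapped before PH only. Slc27a5 had a log2 fold change of -1.51 (SE 0.28, adjusted p 0.000255) in MCD versus C before PH and -0.91 (SE 0.28, adjusted p 0.0306) after PH. With normexp and with the deposited values the call before PH was lost (range over alternatives 4.52e-06 to 0.135). The call after PH ended without C after PH replicate 2, 3 or 4 or MCD after PH replicate 1 or 2 (adjusted p up to 0.124, range over alternatives 0.00107 to 0.137). With Fc-GLP-1 the diet values were -0.48 (adjusted p 0.297) before PH and -0.80 (adjusted p 0.0595) after PH. The latter was called with the mean over probes (-0.90, adjusted p 0.00748) and the replicate block, and without C before PH replicate 1 or 4, C after PH replicate 1 or C+Fc-GLP-1 after PH replicate 1 (range 0.00748 to 0.231). The mean over probes also called C after versus before PH (-0.74, adjusted p 0.0285, range 0.0285 to 0.763) and the diet by Fc-GLP-1 interaction before PH (1.06, adjusted p 0.0441, range 0.0441 to 0.728). In M+Fc-GLP-1 versus MCD before PH it rose by 1.08 (SE 0.28, adjusted p 0.0199), a call lost without MCD replicate 1 or 2 or M+Fc-GLP-1 replicate 4 (up to 0.0802, range 0.00874 to 0.576).

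Cyp7a1 and Cyp8b1, the rate-limiting enzyme of the classic route and the 12-alpha-hydroxylase, were singled out after their values were seen, as were all members named below outside the rule for named genes. Cyp7a1 read 0.45, 2.14, 3.27 and 2.38 in C, 2.79, 2.65, 3.64 and 1.96 in MCD, 2.95, 0.94, 1.70 and 2.53 in C+Fc-GLP-1 and 3.16, 3.37, 1.89 and 3.65 in M+Fc-GLP-1 before PH. After PH, Cyp7a1 was at 2.26, 4.13, 2.38 and 3.42 in C, -0.34, 0.95, 1.74 and 2.06 in MCD, 2.61, 0.81, 1.20 and 0.02 in C+Fc-GLP-1 and 2.95, 2.81, 3.28 and 1.86 in M+Fc-GLP-1. The 4 groups before PH overlapped, while after PH each MCD liver was below each C liver. It fell in MCD versus C after PH, -1.94 (SE 0.61, adjusted p 0.0327), and its value before PH was 0.70 (SE 0.61, adjusted p 0.41). The fall lost its call without C after PH replicate 2 or 4 or MCD after PH replicate 1 or 2 (adjusted p up to 0.149, range over alternatives 0.01 to 0.149). With Fc-GLP-1 the diet values of Cyp7a1 were 0.99 before PH and 1.56 after PH, neither called. Their adjusted p was 0.323 and 0.0886 in the fit with the mean over probes. Cyp7a1 had a single probe, so its signal values in that fit were those of the main fit.

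Cyp8b1 read 3.35, 2.35, 3.50 and 2.16 in C, 0.99, 0.50, 1.44 and 0.07 in MCD, 1.84, 3.31, 2.68 and 2.23 in C+Fc-GLP-1 and 1.44, 2.44, 0.73 and 1.25 in M+Fc-GLP-1 before PH. After PH, Cyp8b1 stood at -5.00, 3.68, 3.29 and 2.68 in C, -1.48, -0.94, -0.16 and -0.28 in MCD, 1.24, 1.57, 1.86 and 1.35 in C+Fc-GLP-1 and 2.16, 0.96, 0.95 and 0.67 in M+Fc-GLP-1. MCD livers lay below C livers before PH with no overlap, and after PH they lay below all C livers but replicate 1. In the main fit Cyp8b1 was called in no comparison: -2.09 (SE 1.02, adjusted p 0.128) in MCD versus C before PH and -1.88 (SE 1.02, adjusted p 0.251) after PH. Without C after PH replicate 1 these were -2.09 (adjusted p 0.000363, range over alternatives 0.000363 to 0.238) and -3.94 (adjusted p 3.14e-07, range 3.14e-07 to 0.611). The same omission turned C+Fc-GLP-1 versus C after PH from 0.34 (adjusted p 0.928) to -1.72 (adjusted p 0.0392, range 0.0392 to 0.982). It also brought calls to M+Fc-GLP-1 versus MCD after PH, 1.90 (adjusted p 0.00483, range 0.00483 to 0.47), and to MCD after versus before PH, -1.47 (adjusted p 0.0197, range 0.0197 to 0.6). With all arrays in place, normexp called it in MCD versus C after PH. A fit of only the arrays compared called it in MCD versus C before PH (adjusted p 0.0039), M+Fc-GLP-1 versus MCD after PH (0.0278) and MCD after versus before PH (0.0293).

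The other calls among the enzymes were few. The sterol carrier Scp2 fell by 0.69 (SE 0.26, adjusted p 0.0465) in MCD versus C before PH, a call lost without any 1 of 14 arrays: C replicates 1, 3 and 4, MCD replicates 1, 2 and 4, C+Fc-GLP-1 replicate 3 and M+Fc-GLP-1 replicates 3 and 4 before PH, and C replicate 4, C+Fc-GLP-1 replicate 3, MCD replicates 3 and 4 and M+Fc-GLP-1 replicate 3 after PH (adjusted p up to 0.13, range over alternatives 0.0167 to 0.44). Baat, which joins bile acids to taurine, fell by 0.96 (SE 0.31, adjusted p 0.0411) in MCD versus C after PH, and this call ended without C after PH replicate 2, 3 or 4 or MCD after PH replicate 1, 2 or 4 (up to 0.124, range 0.0105 to 0.124). With Fc-GLP-1 after PH Baat fell by 1.28 (SE 0.31, adjusted p 0.00586), lost with normexp and with the deposited values (range 0.000912 to 0.0648). The 5-beta-reductase Akr1d1 fell by 1.33 (SE 0.39, adjusted p 0.0253) in MCD versus C after PH and rose by 1.73 (SE 0.39, adjusted p 0.00827) in M+Fc-GLP-1 versus MCD after PH. The first of these 2 calls was lost without C after PH replicate 2 or MCD after PH replicate 1 or 2 (up to 0.155, range 0.00678 to 0.155). The latter call was lost with only the arrays compared (range 0.00276 to 0.0818). The peroxisomal oxidase Acox2 rose by 0.66 (SE 0.22, adjusted p 0.0423) in M+Fc-GLP-1 versus C+Fc-GLP-1 after PH, lost without C+Fc-GLP-1 replicate 1, 2 or 4 or M+Fc-GLP-1 replicate 1, 2 or 3 (up to 0.145, range 0.0189 to 0.341). Hsd3b7 and Amacr, of ring and side chain modification, were called in no comparison in the main fit, and in MCD versus C after PH they went from -0.51 and -0.77 to -1.02 (adjusted p 0.0311, range 0.0311 to 0.769) and -1.11 (adjusted p 0.0015, range 0.0015 to 0.204) without C after PH replicate 1. Amacr, at adjusted p 0.0543 in the main fit, was called there too with normexp, the deposited values, the mean over probes (-0.77, adjusted p 0.0489) and the replicate block, and without C+Fc-GLP-1 after PH replicate 1 or M+Fc-GLP-1 after PH replicate 4.

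Among the 4 receptors 1 was called in MCD versus C before PH, 0 after PH (limma, 0 at unadjusted p under 0.05), all 4 with Fc-GLP-1 before PH and 0 with Fc-GLP-1 after PH (limma, 2 at unadjusted p under 0.05). Of all genes 26.3, 12.2, 10.4 and 12.8 percent were called in these 4 comparisons. Nr0b2, which encodes the repressor SHP, read 2.73, 2.03, 2.44 and 2.25 in C, 1.19, 0.14, 0.71 and 0.35 in MCD, 2.71, 2.47, 2.06 and 3.26 in C+Fc-GLP-1 and 0.69, 0.79, 1.79 and 0.55 in M+Fc-GLP-1 before PH. After PH, Nr0b2 was read at 0.91, 1.92, 1.75 and 0.18 in C, 0.54, 0.76, 0.36 and 0.17 in MCD, 1.02, 1.78, 2.34 and 2.01 in C+Fc-GLP-1 and 1.50, 1.53, 0.23 and 0.34 in M+Fc-GLP-1. MCD livers were below chow livers without overlap in both pairs before PH, and both pairs overlapped after PH. Its log2 fold change was -1.76 (SE 0.37, adjusted p 0.00102) in MCD versus C before PH, held under each alternative, and -1.67 (SE 0.37, adjusted p 0.00373) with Fc-GLP-1, lost with the deposited values (range over alternatives 0.0017 to 0.0504). After PH the values were -0.73 (adjusted p 0.221) and -0.89 (adjusted p 0.125).

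Nr1h4, the bile acid receptor FXR, read 6.28, 6.17, 6.16 and 6.28 in C, 5.83, 6.03, 6.59 and 6.10 in MCD, 5.64, 5.98, 5.49 and 6.34 in C+Fc-GLP-1 and 7.51, 7.05, 6.17 and 6.91 in M+Fc-GLP-1 before PH. After PH, Nr1h4 read 5.03, 6.01, 5.97 and 5.60 in C, 5.51, 5.43, 5.78 and 6.03 in MCD, 5.62, 6.0, 5.88 and 5.86 in C+Fc-GLP-1 and 5.77, 6.83, 6.14 and 6.14 in M+Fc-GLP-1. Of the 4 M+Fc-GLP-1 livers before PH, 3 were the highest of their time, and 1 lay within the range of C+Fc-GLP-1. It rose by 1.05 (SE 0.27, adjusted p 0.0102) in M+Fc-GLP-1 versus C+Fc-GLP-1 before PH, a call lost without M+Fc-GLP-1 replicate 1 (adjusted p 0.0515, range over alternatives 0.00233 to 0.0856). The untreated diet value was -0.09 (adjusted p 0.838), and the interaction, 1.14 (adjusted p 0.0667), was called only without M+Fc-GLP-1 before PH replicate 3 (adjusted p 0.0327) or C after PH replicate 1 (adjusted p 0.0482, range 0.0327 to 0.421).

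Nr1i2, the pregnane receptor PXR, read 3.60, 3.09, 1.21 and 2.78 in C, 2.40, 2.58, 1.88 and 2.78 in MCD, 2.65, 1.70, 0.95 and 1.59 in C+Fc-GLP-1 and 3.36, 2.55, 3.57 and 3.43 in M+Fc-GLP-1 before PH. After PH, Nr1i2 levels were 3.56, 2.67, 3.04 and 3.29 in C, 2.99, 3.67, 3.60 and 3.71 in MCD, 1.78, 1.96, 1.68 and 2.26 in C+Fc-GLP-1 and 2.62, 2.73, 3.12 and 2.96 in M+Fc-GLP-1. C+Fc-GLP-1 livers were mostly low and M+Fc-GLP-1 livers high, with a small overlap before PH and none after. Nr1i2 had a log2 fold change of 1.50 (SE 0.37, adjusted p 0.00743) in M+Fc-GLP-1 versus C+Fc-GLP-1 before PH, against -0.26 (adjusted p 0.629) in MCD versus C. After PH it was 0.94 (SE 0.37, adjusted p 0.0944) with Fc-GLP-1, called with only the arrays compared (adjusted p 0.0317) and without C before PH replicate 3 (range over alternatives 0.0317 to 0.198). Nr1i3, the constitutive androstane receptor CAR, read 5.30, 5.70, 4.86 and 4.79 in C, 4.33, 4.99, 4.28 and 4.70 in MCD, 3.85, 4.38, 3.22 and 4.24 in C+Fc-GLP-1 and 5.50, 5.61, 5.14 and 4.71 in M+Fc-GLP-1 before PH. After PH, Nr1i3 levels were 3.47, 4.09, 3.95 and 4.09 in C, 3.85, 3.26, 4.77 and 4.98 in MCD, 3.23, 4.93, 4.44 and 3.79 in C+Fc-GLP-1 and 4.29, 4.75, 5.19 and 4.97 in M+Fc-GLP-1. Before PH each M+Fc-GLP-1 liver was above each C+Fc-GLP-1 liver, and the untreated groups overlapped. Its log2 fold change was 1.32 (SE 0.36, adjusted p 0.016) with Fc-GLP-1 before PH, lost without C+Fc-GLP-1 replicate 3 (adjusted p 0.0743, range over alternatives 0.0101 to 0.0743), against -0.59 (adjusted p 0.229) untreated.

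Slco1a1, an organic anion and bile acid importer of the sinusoidal membrane, fell furthest of the 31 members in each of the 4 diet comparisons. It read 3.95, 3.77, 4.27 and 4.16 in C, 0.04, 0.57, 0.71 and 0.38 in MCD, 5.24, 4.81, 4.64 and 4.60 in C+Fc-GLP-1 and 1.64, 1.57, 0.00 and 1.27 in M+Fc-GLP-1 before PH. After PH, Slco1a1 stood at -6.53, 3.63, 3.72 and 2.31 in C, -3.77, -2.92, -3.88 and -2.96 in MCD, 2.84, 4.19, 4.62 and 3.79 in C+Fc-GLP-1 and -2.32, -3.27, -4.10 and -4.0 in M+Fc-GLP-1. MCD livers were below chow livers with no overlap in 3 of the 4 pairs, and in the remaining pair C after PH replicate 1, below background, lay under all MCD livers. The log2 fold change of Slco1a1 was -3.61 (adjusted p 0.024) for MCD versus C before PH, -4.16 (adjusted p 0.0192) for MCD versus C after PH, -3.71 (adjusted p 0.0414) for M+Fc-GLP-1 versus C+Fc-GLP-1 before PH and -7.28 (adjusted p 8.71e-05) for the same groups after PH. After PH the probe was well above background on 3 of 4 arrays in MCD and on 3 of 4 in C, so the sizes for MCD versus C after PH, with and without C after PH replicate 1, are not exact. The value without that array was -6.60 (adjusted p 3.28e-11, range over alternatives 3.28e-11 to 0.227), and without C after PH replicate 2, 3 or 4 the call ended (up to 0.101). The call before PH ended without MCD replicate 1 (adjusted p 0.0534, range 2.57e-07 to 0.0534). With Fc-GLP-1 before PH it ended without any 1 of the 8 arrays compared, replicates 1, 2, 3 and 4 of both groups (up to 0.112, range 2.7e-07 to 0.112), while fitted on those 8 arrays alone the adjusted p was 0.000632.

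Slc10a2, the apical sodium-dependent transporter that cholangiocytes carry in liver, read 1.27, 1.47, 2.28 and 1.85 in C, 1.71, 1.80, 2.02 and 2.05 in MCD, 3.37, 3.77, 3.31 and 2.65 in C+Fc-GLP-1 and 1.43, 1.96, 1.25 and 1.23 in M+Fc-GLP-1 before PH. After PH, Slc10a2 stood at 2.93, 3.17, 2.70 and 2.89 in C, 1.66, 0.95, 1.95 and 2.47 in MCD, 3.77, 3.78, 2.92 and 3.21 in C+Fc-GLP-1 and 0.92, -0.03, 0.51 and 1.26 in M+Fc-GLP-1. Before PH C+Fc-GLP-1 was above the other 3 groups with no overlap, and after PH the MCD livers were below the chow livers in both pairs. The log2 fold change of Slc10a2 was 0.18 (adjusted p 0.706) for MCD versus C before PH, -1.16 (adjusted p 0.0117) for MCD versus C after PH, -1.81 (adjusted p 0.000182) for M+Fc-GLP-1 versus C+Fc-GLP-1 before PH and -2.76 (adjusted p 4.57e-07) for the same groups after PH. It rose by 1.56 (SE 0.31, adjusted p 0.00776) in C+Fc-GLP-1 versus C before PH, lost with normexp, the deposited values and only the arrays compared (adjusted p 0.0772 with the last, range over alternatives 0.00314 to 0.166). It fell by 1.09 (SE 0.31, adjusted p 0.0299) in M+Fc-GLP-1 versus MCD after PH. The last call ended without MCD after PH replicate 1, 3 or 4 or M+Fc-GLP-1 after PH replicate 2 or 3 (adjusted p up to 0.119, range over alternatives 0.013 to 0.142), and that of MCD versus C after PH ended without MCD replicate 2 (0.0728, range 0.00398 to 0.0728). Its brightest probe carries an older gene name in the files, and a second probe gave -0.06, -0.87, -1.74 and -2.21 in the 4 diet comparisons. None of the 8 cholangiocyte markers tested was called in M+Fc-GLP-1 versus C+Fc-GLP-1 before or after PH (limma, 2 and 1 at unadjusted p under 0.05). A smaller share of a cell type and less RNA in each cell cannot be told apart in bulk liver.

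Slco1a4, an importer of organic anions on the same membrane as Slco1a1, read 2.93, 2.53, 2.13 and 2.22 in C, 3.30, 3.36, 3.15 and 3.54 in MCD, 2.05, 0.13, 1.01 and 2.43 in C+Fc-GLP-1 and 3.89, 4.21, 4.08 and 3.94 in M+Fc-GLP-1 before PH. After PH, Slco1a4 stood at 2.02, 2.04, 1.83 and 2.25 in C, 1.04, 1.42, 2.31 and 2.90 in MCD, 1.63, 1.80, 1.19 and 1.01 in C+Fc-GLP-1 and 3.35, 2.40, 2.84 and 3.41 in M+Fc-GLP-1. With the drug, MCD livers were above chow livers at both times with no overlap. It rose by 2.62 (SE 0.37, adjusted p 1.8e-05) before PH and 1.59 (SE 0.37, adjusted p 0.00433) after PH, and both calls held under each alternative. Untreated MCD livers were above C livers before PH with no overlap as well, and its value was 0.89 (adjusted p 0.0758, and 0.0237 with only the arrays compared) before PH and -0.12 (adjusted p 0.886) after PH. Slc10a1, the main sodium-dependent importer of hepatocytes, was called in no comparison by its brightest probe, -0.28 (adjusted p 0.378) in MCD versus C before PH. A second, dimmer probe of Slc10a1 gave -1.96 there, and the mean of the 2 probes gave -1.12 (adjusted p 0.00262, range over alternatives 0.00262 to 0.929) and, in C after versus before PH, -0.91 (adjusted p 0.0218, range 0.0218 to 0.473). The dimmer probe gave -0.98 in MCD versus C after PH, and -1.08 and -0.49 with Fc-GLP-1 before and after PH. By the brightest probe these values were 0.11, 0.27 and 0.02, so the 2 probes differed in sign. Slco1b2 and Slco2b1, further importers, were called in no comparison in the main fit. Without C after PH replicate 1 they went from -0.34 and -1.06 to -0.84 (adjusted p 0.0191, range 0.0191 to 0.91) and -1.44 (adjusted p 0.00682, range 0.00682 to 0.193) in MCD versus C after PH. There Slco2b1 was also called with the mean over probes (-1.12, adjusted p 0.0272) and without C before PH replicate 1, MCD after PH replicate 3 or M+Fc-GLP-1 after PH replicate 1. Slco1b2 was called with normexp and with the deposited values in C+Fc-GLP-1 versus C before PH, where the main fit gave -0.43 (adjusted p 0.495) (range 0.00581 to 0.847), and without C after PH replicate 1 in MCD after versus before PH, -0.73 (adjusted p 0.0372, range 0.0372 to 0.353). Slco1b2 was fitted without M+Fc-GLP-1 before PH replicate 3, where its spot was flagged.

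Of the canalicular proteins Abcb1a, the drug exporter MDR1A, moved most. It read -0.44, -0.86, -1.34 and -1.13 in C, 1.59, 1.89, 1.04 and 2.10 in MCD, -0.28, -1.82, -1.50 and -0.30 in C+Fc-GLP-1 and 0.80, 0.87, 1.72 and 1.50 in M+Fc-GLP-1 before PH. After PH, Abcb1a stood at 1.71, -1.70, -1.05 and -0.53 in C, 0.56, 1.06, 1.42 and 1.34 in MCD, -0.14, -0.96, -1.30 and -1.35 in C+Fc-GLP-1 and 1.24, 1.42, 1.06 and 2.06 in M+Fc-GLP-1. MCD livers were high and chow livers low without overlap, except that C after PH replicate 1 was above all 4 MCD livers after PH. The log2 fold change of Abcb1a was 2.60 (adjusted p 0.00023) for MCD versus C before PH, 1.49 (adjusted p 0.0382) for MCD versus C after PH, 2.20 (adjusted p 0.00277) for M+Fc-GLP-1 versus C+Fc-GLP-1 before PH and 2.38 (adjusted p 0.000997) for the same groups after PH. In MCD versus C after PH it was 2.19 without C after PH replicate 1 (adjusted p 0.000213, range over alternatives 0.000213 to 0.186), and the call ended without C after PH replicate 2, 3 or 4 or MCD after PH replicate 2, 3 or 4 (up to 0.186).

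The other canalicular calls were smaller. Abcc2, the conjugate exporter MRP2, rose by 0.61 (SE 0.19, adjusted p 0.0177) in MCD versus C before PH, a call lost without MCD replicate 2 (adjusted p 0.056, range over alternatives 0.000963 to 0.257), and by 0.85 (SE 0.19, adjusted p 0.0036) with Fc-GLP-1, lost with normexp, median centring and the deposited values (range 0.00187 to 0.0848). The flippase Atp8b1 fell by 0.90 (SE 0.27, adjusted p 0.0164) in MCD versus C before PH with overlapping groups, lost without C replicate 1 (0.085, range 0.00293 to 0.232). With Fc-GLP-1 its log2 fold change was -1.33 (SE 0.27, adjusted p 0.00172) before PH and -1.02 (SE 0.27, adjusted p 0.0125) after PH, the first lost with normexp and with the deposited values (range 0.000911 to 0.082) and the latter without C+Fc-GLP-1 replicate 2 or M+Fc-GLP-1 replicate 4 (up to 0.0664, range 0.00772 to 0.0664). Abcb11, the bile salt export pump, fell by 1.35 (SE 0.43, adjusted p 0.0338) in M+Fc-GLP-1 versus C+Fc-GLP-1 after PH, with overlapping groups. That call ended without C+Fc-GLP-1 replicate 3 or 4 or M+Fc-GLP-1 replicate 1, 2 or 4 (up to 0.14, range 0.0047 to 0.14). The phospholipid exporter Abcb4 and a further exporter, Abcg2, were called in no comparison.

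All 3 basolateral exporters tested were called in MCD versus C before PH, Abcc4 and Slc51b higher and Abcc3 lower. Of all genes 26.3 percent were called in that comparison, 10.9 percent higher and 15.5 percent lower. Abcc4, the exporter MRP4, read -2.05, -2.28, -1.40 and -1.69 in C, 1.14, 0.73, 1.62 and 1.20 in MCD, -1.97, -2.21, -1.91 and -1.94 in C+Fc-GLP-1 and -1.11, -0.88, 0.21 and 0.73 in M+Fc-GLP-1 before PH. After PH, Abcc4 stood at 0.34, -1.59, -1.33 and -1.67 in C, 0.19, 0.87, 0.32 and 0.64 in MCD, -1.14, -1.64, -1.09 and -2.0 in C+Fc-GLP-1 and 1.63, 1.98, 0.57 and 2.53 in M+Fc-GLP-1. MCD livers were above chow livers without overlap, save that C after PH replicate 1 was at the level of the MCD livers. The log2 fold change of Abcc4 was 3.03 (adjusted p 5.24e-06) for MCD versus C before PH, 1.57 (adjusted p 0.0111) for MCD versus C after PH, 1.75 (adjusted p 0.00546) for M+Fc-GLP-1 versus C+Fc-GLP-1 before PH and 3.15 (adjusted p 4.18e-06) for the same groups after PH. Without C after PH replicate 1 it was 2.04 in MCD versus C after PH (adjusted p 0.00043, range over alternatives 0.00043 to 0.0562), and it lost its call with only the arrays compared. With Fc-GLP-1 before PH the call was lost with normexp and with the deposited values (range 0.00129 to 0.169). Among MCD-fed livers before PH the drug went with a fall of Abcc4, -1.43 (SE 0.41, adjusted p 0.0323), a call lost without MCD replicate 1, 3 or 4 or M+Fc-GLP-1 replicate 1 or 2 (up to 0.118, range 0.0128 to 0.118).

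Slc51b, a subunit of the organic solute exporter, read -3.45, -2.04, -1.34 and -2.71 in C, 0.39, -0.02, 0.06 and 0.20 in MCD, -3.43, -3.52, -3.10 and -2.04 in C+Fc-GLP-1 and -0.46, -1.34, 0.10 and 0.80 in M+Fc-GLP-1 before PH. After PH, Slc51b stood at 2.01, -1.60, -0.79 and -0.29 in C, -0.94, -0.94, 0.87 and 1.09 in MCD, -0.74, -3.10, -2.62 and -2.42 in C+Fc-GLP-1 and -0.13, 1.28, 0.98 and -0.69 in M+Fc-GLP-1. MCD livers were above chow livers without overlap in all pairs but the untreated livers after PH. Slc51b had a log2 fold change of 2.54 (SE 0.64, adjusted p 0.0045) in MCD versus C before PH. With Fc-GLP-1 it was 2.80 (SE 0.64, adjusted p 0.00469) before PH and 2.58 (SE 0.64, adjusted p 0.00732) after PH. The size with Fc-GLP-1 before PH is not exact, since C+Fc-GLP-1 was well above background on 2 of 4 arrays. With the deposited values the call under the drug before PH was lost (range over alternatives 0.00112 to 0.068). Untreated after PH it was 0.19 (adjusted p 0.894), where C replicate 1 was the highest of the 8 livers, and 0.91 without that array (adjusted p 0.347, range 0.347 to 0.99). Abcc3, the conjugate exporter MRP3, read 6.52, 6.46, 5.68 and 5.96 in C, 4.38, 4.70, 4.78 and 4.59 in MCD, 5.27, 5.04, 4.82 and 5.19 in C+Fc-GLP-1 and 5.62, 5.02, 5.25 and 5.34 in M+Fc-GLP-1 before PH. After PH, Abcc3 stood at 6.14, 5.37, 5.64 and 5.81 in C, 4.54, 4.74, 4.83 and 4.96 in MCD, 5.69, 5.90, 5.66 and 4.88 in C+Fc-GLP-1 and 5.53, 5.23, 5.10 and 5.65 in M+Fc-GLP-1. C livers were above MCD livers without overlap at both times, and the treated groups overlapped. It fell by 1.54 (SE 0.23, adjusted p 1.62e-05) in MCD versus C before PH and fell by 0.97 (SE 0.23, adjusted p 0.00484) after PH, both held under each alternative, against 0.23 (adjusted p 0.579) and -0.16 (adjusted p 0.742) with Fc-GLP-1.

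**Figure D3:**
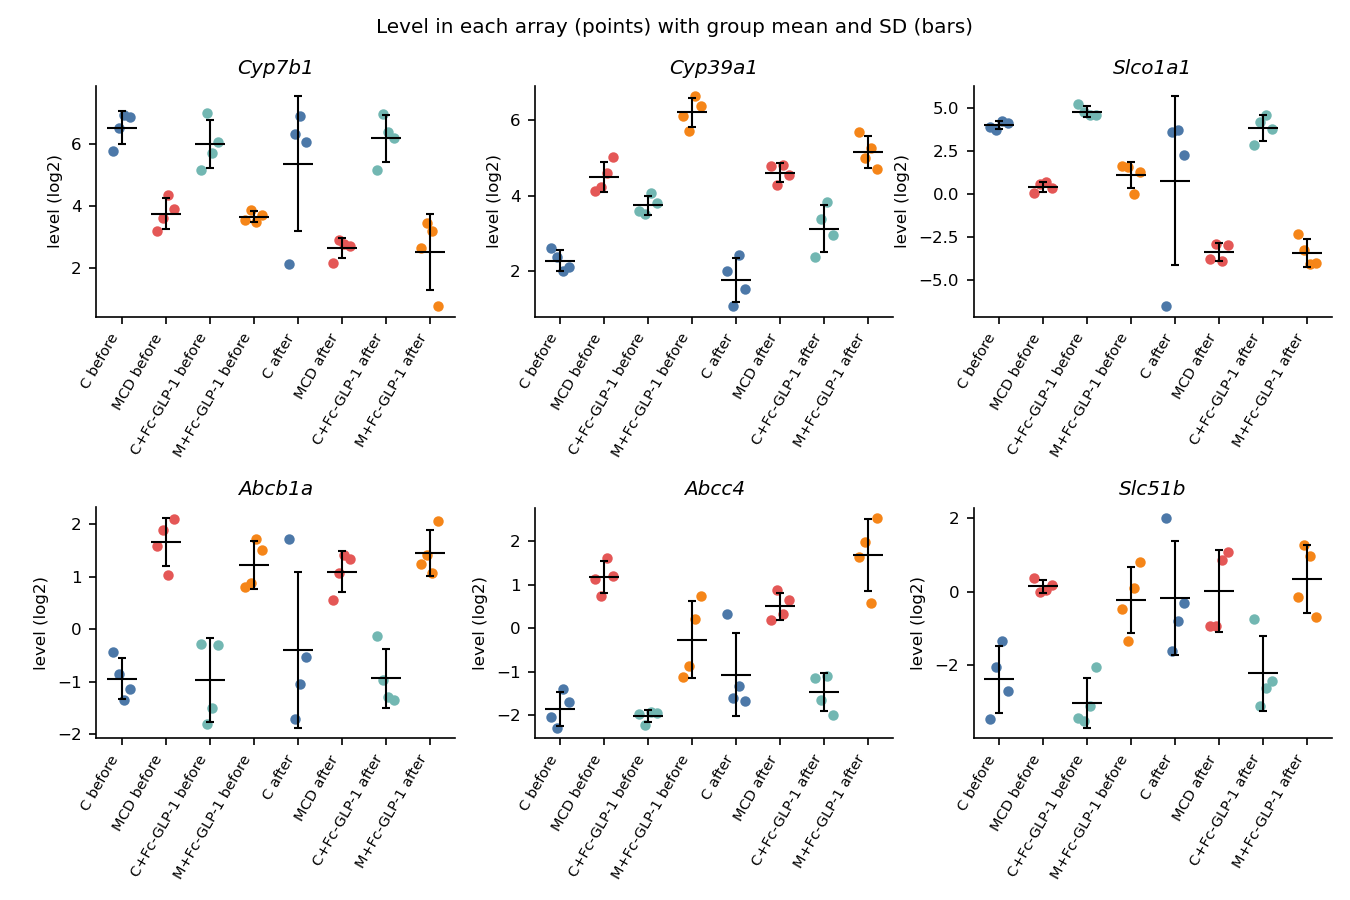
Log2 signal of 6 members on every array, by group. Abcc4 in MCD versus C before PH differed by 3.03 and Cyp7b1 by -2.77.

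Fc-GLP-1 moved fewer members than the diet, and each of these comparisons spans 2 slides. In C+Fc-GLP-1 versus C before PH 3 of 31 were called, Cyp39a1 and Slc10a2 higher and Abcc3 lower at -1.07 (SE 0.23, adjusted p 0.0135), where 2.07 percent of all genes were called (medians -0.15 and -0.04). All 3 lost their calls with normexp and quantile normalization, with the deposited values and with only the arrays compared (adjusted p up to 0.278 for Cyp39a1, 0.166 for Slc10a2 and 0.117 for Abcc3). Median centring called 2 higher and 0 lower and moved the median of all genes by 0.30, while normexp and the deposited values each gave 0 higher and 4 lower. In C+Fc-GLP-1 versus C after PH only Cyp39a1 was called, where 2.05 percent of all genes were (medians 0.19 and 0.04). The count was 2 without C before PH replicate 1, 2 or 3 or C after PH replicate 1, and 0 without C after PH replicate 2 or C+Fc-GLP-1 after PH replicate 3. In M+Fc-GLP-1 versus MCD before PH 3 were called, Cyp39a1 and Slc27a5 higher and Abcc4 lower, where 7.21 percent of all genes were called (medians 0.36 and 0.10). It was 1 without MCD before PH replicate 1 and 5 without C after PH replicate 1, and median centring, which moved the median of all genes by -0.32, gave 1 higher and 1 lower, while normexp gave 3 higher and 0 lower and the deposited values 2 higher and 0 lower. After PH 2 were called in M+Fc-GLP-1 versus MCD, Akr1d1 higher and Slc10a2 lower, where 6.45 percent of all genes were (medians 0.41 and 0.05). That count was 4 without C after PH replicate 1 and 1 without MCD replicate 1 or 3 or M+Fc-GLP-1 replicate 2, all after PH. Normexp, moving the median of all genes by -0.10, gave 1 higher and 0 lower, and the deposited values, moving it by -0.11, gave 2 higher and 0 lower. All 4 share their arrays with the diet comparisons of the same time.

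Over time, 4 members were called in C after versus before PH, where 13.8 percent of all genes were called (medians -0.41 and -0.08). Nr0b2 fell by 1.17 (SE 0.37, adjusted p 0.0357) and Nr1i3 fell by 1.27 (SE 0.36, adjusted p 0.0183), while Slc10a2 rose by 1.20 (SE 0.31, adjusted p 0.0093) and Slc51b by 2.22 (SE 0.64, adjusted p 0.0213). Slc10a2 lost its call with normexp (range over alternatives 0.00616 to 0.0536). Without C after PH replicate 1 the count was 1, Slc10a2, and it was 2 without C before PH replicate 1 or 4. Nr0b2 then stood at -1.08 (adjusted p 0.103, range over alternatives 0.02 to 0.148), and it also lost its call without C before PH replicate 1, 3 or 4 or C after PH replicate 4 (up to 0.148). Nr1i3 stood at -1.12 (0.072, range 0.0125 to 0.072) and was lost as well without C before PH replicate 2. Slc51b stood at 1.49 (0.129, range 0.0102 to 0.129) and was lost as well without C before PH replicate 1 or 4. The split of 2 higher and 2 lower shifted with the scaling: median centring, which moved the median of all genes by 0.16, gave 2 higher and 1 lower, and normexp, which moved it by 0.12, gave 1 higher and 3 lower.

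In MCD after versus before PH 2 members were called, where 9.33 percent of all genes were (medians -0.45 and -0.03). Slco1a1 fell by 3.81 (SE 1.18, adjusted p 0.0391), and Slco1a4 fell by 1.42 (SE 0.37, adjusted p 0.0147). The size for Slco1a1 is not exact, as MCD after PH was well above background on 3 of 4 arrays. The call of Slco1a1 ended without any 1 of the 8 arrays compared, replicates 1, 2, 3 and 4 of MCD before and after PH (adjusted p up to 0.0878, range over alternatives 1.46e-06 to 0.0878), and that of Slco1a4 without MCD after PH replicate 1 or 2 (up to 0.0723, range 0.00463 to 0.0723). The count was thus 1 without any 1 of MCD before PH replicates 1, 2, 3 and 4 or MCD after PH replicates 3 and 4, 0 without MCD after PH replicate 1 or 2, and 4 without C after PH replicate 1. In C+Fc-GLP-1 after versus before PH limma called 0 members, 2 being under 0.05 before adjustment, where 0.831 percent of all genes were called (medians 0.05 and 0.00). In M+Fc-GLP-1 after versus before PH 2 were called, where 1.71 percent of all genes were (medians -0.29 and -0.03), Slco1a1 falling by 4.54 (SE 1.18, adjusted p 0.0428) and Abcc4 rising by 1.94 (SE 0.41, adjusted p 0.0107). The call of Slco1a1 ended without MCD before PH replicate 1, 2 or 4, M+Fc-GLP-1 before PH replicate 1, 2, 3 or 4 or M+Fc-GLP-1 after PH replicate 2, 3 or 4 (up to 0.102, range 6.66e-08 to 0.102). That of Abcc4 ended without M+Fc-GLP-1 before PH replicate 1 or after PH replicate 4 (up to 0.0527, range 0.00219 to 0.127). The count was 0 without either of those 2 arrays, 1 without MCD before PH replicate 1, 2 or 4, M+Fc-GLP-1 before PH replicate 3 or 4 or M+Fc-GLP-1 after PH replicate 2 or 3, and 3 at most.

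Whether the diet acted differently under Fc-GLP-1 was tested before PH as the diet by drug interaction, which called 5 of 31 members, 4 higher and 1 lower, where 6.12 percent of all genes were called, 3.57 percent higher and 2.55 percent lower (medians 0.29 and 0.15). Abcc3 gave 1.77 (SE 0.32, adjusted p 0.00354): the diet lowered it in untreated livers (-1.54) and its value with the drug was 0.23. This call held under each alternative. Slc10a2 gave -1.98 (SE 0.43, adjusted p 0.01), from 0.18 untreated to -1.81 with the drug, and it held with every array left out but not with normexp or the deposited values (range over alternatives 0.00134 to 0.153). Nr1i3 gave 1.91 (SE 0.51, adjusted p 0.0265), lost without C replicate 2, MCD replicate 1 or 3 or C+Fc-GLP-1 replicate 3, all before PH (adjusted p up to 0.0561, range over alternatives 0.0171 to 0.113). Nr1i2 gave 1.77 (SE 0.52, adjusted p 0.0408), lost without C replicate 1, 2 or 4, MCD replicate 1, 2 or 3, C+Fc-GLP-1 replicate 2, 3 or 4 or M+Fc-GLP-1 replicate 1, 3 or 4 before PH (up to 0.0944, range 0.00525 to 0.245). Slco1a4 gave 1.73 (SE 0.53, adjusted p 0.0469), lost without C replicate 1, 2 or 4, any MCD replicate (1, 2, 3 or 4), C+Fc-GLP-1 replicate 2 or 3 or any M+Fc-GLP-1 replicate (1, 2, 3 or 4) before PH, or C replicate 2 or 4, C+Fc-GLP-1 replicate 3, MCD replicate 3 or M+Fc-GLP-1 replicate 3 after PH (up to 0.105, range 0.023 to 0.133).

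The count of 5 was 2 without C replicate 2, MCD replicate 1 or 3 or C+Fc-GLP-1 replicate 3, and 3 without C replicate 1 or 4, MCD replicate 2, C+Fc-GLP-1 replicate 2 or M+Fc-GLP-1 replicate 1 or 4, all before PH. Median centring moved the median of all genes by -0.62 and turned the members called to 1 higher and 3 lower, and normexp and the deposited values, each moving it by -0.13, called 2 higher and 0 lower. The diet by time interaction under Fc-GLP-1 called 0 of 31 members in limma, with 5 under 0.05 before adjustment, where 0.0939 percent of all genes were called (medians -0.31 and -0.03). Without C after PH replicate 1 it called 1, Slco1a1 at -3.57 (adjusted p 0.00458, range over alternatives 0.00458 to 0.71). Interactions of diet with the drug after PH, and of diet with time in untreated livers, were not tested.

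**Figure D4:**
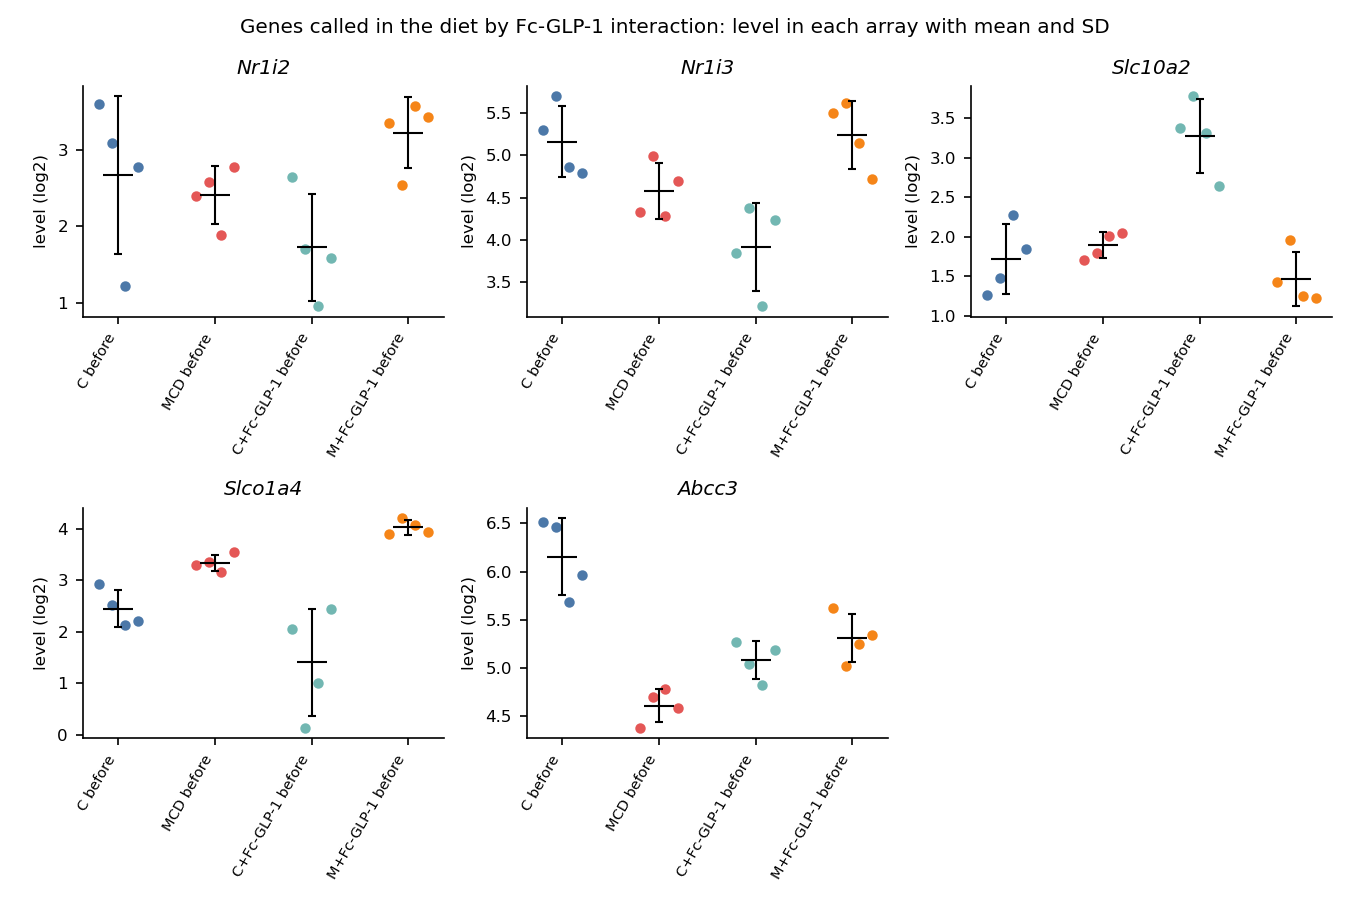
Log2 signal of the 5 members called in the diet by Fc-GLP-1 interaction before PH. The interaction was 1.77 for Abcc3 and -1.98 for Slc10a2.

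Of the members called in the diet comparisons, 4 belong to the genes known to differ between male and female mouse liver, and all mice here were male. Of 7 other male-biased genes tested, 5 fell in MCD versus C before PH, Cyp4a12a most (-6.06, adjusted p 5.71e-06), and 5, 6 and 5 fell in the diet comparisons after PH, with Fc-GLP-1 before PH and with Fc-GLP-1 after PH, against 15.5, 6.11, 5.01 and 6.66 percent of all genes. Of 8 female-biased genes tested, 6 rose in each of the 4, Cyp3a44 most in MCD versus C before PH, at least 763-fold since no C array was well above background (adjusted p 9.17e-13). Of all genes 10.9, 6.07, 5.37 and 6.19 percent rose in the 4 comparisons. The summed log2 signal of the female-biased genes, with Cyp2a4 the brightest, was 7.82, 7.57, 7.52 and 7.64 in C, 9.21, 9.55, 9.20 and 9.30 in MCD, 6.17, 6.50, 6.28 and 6.82 in C+Fc-GLP-1 and 9.32, 9.65, 9.60 and 10.01 in M+Fc-GLP-1 before PH. After PH it was 7.53, 7.0, 6.77 and 6.75 in C, 8.65, 9.09, 9.42 and 9.46 in MCD, 5.42, 6.90, 6.89 and 6.45 in C+Fc-GLP-1 and 9.60, 9.08, 9.30 and 9.58 in M+Fc-GLP-1. MCD livers were above chow livers on the same treatment without overlap, and Cyp3a44, Cyp2b13 and Sult2a1 were below background in at least 1 group. For the male-biased genes, with Mup20 the brightest, the sums were 9.86, 10.35, 10.47 and 10.43 in C, 8.67, 9.30, 9.26 and 9.27 in MCD, 9.89, 10.05, 10.38 and 9.82 in C+Fc-GLP-1 and 9.55, 9.16, 8.29 and 9.10 in M+Fc-GLP-1 before PH. After PH they were 8.15, 10.33, 10.49 and 9.84 in C, 8.87, 8.55, 8.28 and 8.09 in MCD, 9.84, 9.69, 10.85 and 10.66 in C+Fc-GLP-1 and 9.16, 8.85, 8.61 and 8.89 in M+Fc-GLP-1. MCD livers were below chow livers in 3 of the 4 pairs, and C after PH replicate 1 lay within the MCD range. Whether these genes and the members share a cause was not tested.

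Of 10 macrophage markers, 7 rose and 1 fell in MCD versus C before PH, where 10.9 percent of all genes rose and 15.5 percent fell, Vsig4 rising most (2.30, adjusted p 0.0002) and Itgam falling (-1.56, adjusted p 0.00486), a fall lost with normexp, the deposited values and the mean over its probes (range over alternatives 0.000639 to 0.382). Of the 10, 5 fell in M+Fc-GLP-1 versus MCD before PH, Cd5l most (-1.84, adjusted p 0.00775), where 7.21 percent of all genes were called in either direction. Their summed log2 signal, with Cd5l the brightest, was 6.06, 6.82, 6.54 and 6.57 in C, 8.48, 6.99, 8.02 and 8.08 in MCD, 6.72, 7.20, 6.44 and 6.84 in C+Fc-GLP-1 and 6.55, 6.23, 5.66 and 6.98 in M+Fc-GLP-1 before PH. After PH the sum was 9.24, 8.24, 7.12 and 7.98 in C, 8.67, 8.96, 8.56 and 7.82 in MCD, 8.56, 7.81, 8.01 and 7.67 in C+Fc-GLP-1 and 7.62, 7.59, 7.99 and 7.50 in M+Fc-GLP-1. MCD livers before PH were above C and M+Fc-GLP-1 livers, and in each group but MCD every liver after PH was above every liver before PH. None of these markers was below background in a group. In C after versus before PH 9 of 10 rose, Lyz2 most (2.64, adjusted p 0.00232), where 13.8 percent of all genes were called in either direction. Whether the members' calls follow from the share of macrophages was not tested.

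**Figure D5:**
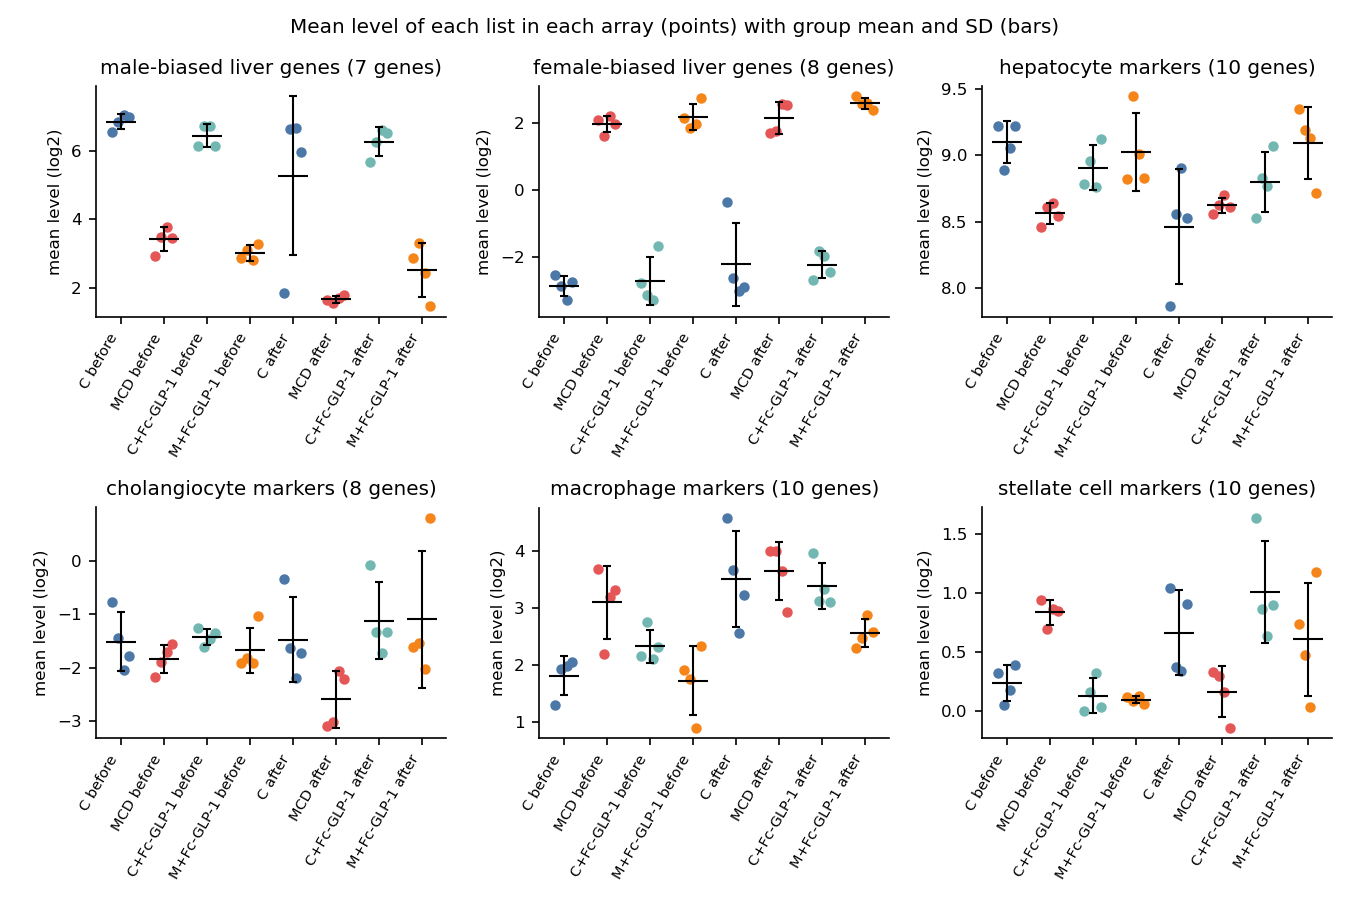
Mean log2 signal of the sex-biased and cell marker lists on each array. The male-biased genes averaged 1.84 on C after PH replicate 1 and 6.65 on replicate 2.

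The remaining lists are given for MCD versus C before PH, where 10.9 percent of all genes were called higher and 15.5 percent lower. Of 10 other genes of synthesis and taurine supply 5 fell, the taurine enzyme Csad most (-2.38, adjusted p 3.75e-05). Of 14 other regulators tested 1 fell, the membrane bile acid receptor Gpbar1 (-1.78, adjusted p 1.71e-06). Of 15 target genes of PXR and CAR tested 4 rose, Akr1b7 most (4.32, adjusted p 3.32e-05), and 3 fell, Ces2a most (-3.15, adjusted p 7.15e-07). Of 16 other transporters and scaffold proteins tested 2 rose, Abcc1 most (1.33, adjusted p 0.0366), and 2 fell, Abcc6 most (-0.97, adjusted p 0.0377). Abcc1 lost its call without C replicate 1, 2, 3 or 4 or MCD replicate 3 or 4 (adjusted p up to 0.125, range over alternatives 0.00692 to 0.158). Abcc6 lost its own without C replicate 2, 3 or 4 or MCD replicate 1, 2 or 4 (up to 0.106, range 0.0102 to 0.202). Of the 10 hepatocyte markers 3 fell, Apoa1 most (-1.13, adjusted p 0.000358). Of 10 endothelial markers Stab2 rose (0.92, adjusted p 0.00496), lost with normexp, the deposited values and the mean over its probes (range 0.000604 to 0.84), and of 10 stellate cell markers 3 rose, Lrat most (1.88, adjusted p 8.03e-05).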

How the data were processed

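Raw Agilent files from Feature Extraction 10.7.3.1 were read for all 32 arrays (62976 spots each). The value of a spot is log2 of its processed intensity, a unit that the deposited files name, less the log2 of the 75th percentile of the array's 59305 non-control spots, and the deposited series table is in log2. Flagged spots were left out, a probe was kept if all 4 arrays of some group read it well above background and each group had at least 3 unflagged arrays, and the brightest of the 29300 probes kept stood for each of 21288 genes. Groups were compared with limma 3.58.1 in R 4.3.3, 8 groups in 1 fit, with Benjamini-Hochberg adjustment at 0.05 over all genes. The members and lists were chosen with earlier results of these data known. Every sample is given for members called in MCD versus C before PH with a log2 fold change over 1 in size, members called in an interaction and the 4 receptors. Genes of the other lists are named by the largest call of a list in a direction, for MCD versus C before PH, the diet by Fc-GLP-1 interaction before PH and the macrophage counts given. Such calls in the other comparisons are not named, and 1 result is not reported here. The alternatives were another background correction and normalization (normexp with an offset of 50, then quantile), median centring, the mean over a gene's probes, no filter, the deposited values, only the groups compared, a replicate block, and each array left out. The deposited table was scaled separately before and after PH and was not used for comparisons after versus before PH.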

Additional observations from a re-analysis of the deposited data

Results flagged for a closer look

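Of 136 groups of 4 values, for 17 members in 8 groups, 4 held a sample far from the other 3, and chance flags about 1 in 20 such groups. Cyp8b1 read -5.00 on C after PH replicate 1, the lowest of its group, and Slco1a1 read -6.53 on the same array. Abcc4 read 0.34 there, the highest of its group. Nr1i2 read 2.99 on MCD after PH replicate 1, the lowest of its group.

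The effect of the diet was called as differing between untreated and Fc-GLP-1 livers before PH for 5 members: Nr1i2 (1.77), Nr1i3 (1.91), Slc10a2 (-1.98), Slco1a4 (1.73) and Abcc3 (1.77). Of these calls only that of Abcc3 held under each alternative. Normexp and the deposited values each called 2 members, and with 1 array left out the count ran 2 to 6. In the other lists the effect of the diet was called as differing for Acot8 of bile acid synthesis (1.36, adjusted p 0.0369), the receptor Gpbar1 (1.33, adjusted p 0.015), and Por (1.69, adjusted p 0.0121) and Cyp2c55 (-1.49, adjusted p 0.0405) among targets of PXR and CAR. Gpbar1 lost its call with normexp, median centring and the deposited values (range over alternatives 0.00791 to 0.361), and Por with median centring (range 0.00685 to 0.0562). Acot8 lost its call without C replicate 1, 2 or 4, MCD replicate 1, C+Fc-GLP-1 replicate 1, 3 or 4 or M+Fc-GLP-1 replicate 1 or 3 before PH (up to 0.0896, range over alternatives 0.0236 to 0.264), and Cyp2c55 without C replicate 1 or 2, MCD replicate 1, 2, 3 or 4, C+Fc-GLP-1 replicate 2 or 3 or M+Fc-GLP-1 replicate 1 or 3 (up to 0.0879, range 0.00376 to 0.275). Among female-biased genes it was called for Cux2 (3.48, adjusted p 0.00399), whose probe was well above background on 3 of 4 arrays in C and in C+Fc-GLP-1 before PH, so that the size is not exact. The fit gave -5.51 for Cyp3a44 (adjusted p 0.00105), which is no measured size and is not read as a difference, since no array of either chow group before PH was well above background. Among cell markers it differed for the macrophage gene Lyz2 (-2.96, adjusted p 0.0263), lost without MCD replicate 1, C+Fc-GLP-1 replicate 2 or M+Fc-GLP-1 replicate 3 (up to 0.0614, range 0.00728 to 0.0853), and the collagen Col3a1 (-2.41, adjusted p 0.0267), lost without C replicate 1 or M+Fc-GLP-1 replicate 3 before PH (up to 0.0516, range 0.00209 to 0.155).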

How the results depend on the processing

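Of the 75 calls of members over all comparisons, 24 held under every alternative, 41 held with each array left out, and 0 reversed. Calls kept were 61 with arrays centred on the median, 74 with the mean over a gene's probes, 60 with no filter on dim probes, 48 with normexp and quantile normalization, 46 with only the arrays compared, and 39 of 67 with the deposited values. Of 359 values of members not called, 46 were called under at least 1 alternative, 31 of them under a setting, and not all of these are named. A fit with the replicate number as a replicate block kept 74, with 12 members called in MCD versus C before PH and 13 after PH, and since no comparison had all 4 of its same-numbered pairs correlated over 0.1, no pairing was used. In M+Fc-GLP-1 versus C+Fc-GLP-1 before PH 3 of 4 pairs were over 0.1. There, in MCD versus C after PH and in M+Fc-GLP-1 versus MCD before PH, all 4 correlated best with their own number. With 1 array left out, the count of members called ran 11 to 14 in MCD versus C before PH, 6 to 17 in MCD versus C after PH, 12 to 15 and 10 to 15 in M+Fc-GLP-1 versus C+Fc-GLP-1 before and after PH, 3 to 4 and 0 to 2 in C+Fc-GLP-1 versus C before and after PH, and 1 to 5 and 1 to 4 in M+Fc-GLP-1 versus MCD before and after PH. After versus before PH it ran 1 to 6 in C, 0 to 4 in MCD, 0 to 0 in C+Fc-GLP-1 and 0 to 3 in M+Fc-GLP-1, and it ran 2 to 6 in the diet by Fc-GLP-1 interaction before PH and 0 to 1 in the diet by time interaction under Fc-GLP-1.

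Counts that moved by more than 1.5-fold otherwise were these, and the cause was not tested. MCD versus C after PH went from 12 to 7 without the filter and to 2 with only its arrays. M+Fc-GLP-1 versus C+Fc-GLP-1 before PH went from 15 to 7 with the deposited values. C+Fc-GLP-1 versus C went to 0 with only its arrays, from 3 before PH and from 1 after PH. M+Fc-GLP-1 versus MCD went from 3 to 6 before PH without the filter, and from 2 to 1 after PH with normexp, with the mean over probes, without the filter and with only its arrays. C after versus before PH went from 4 to 2 with only its arrays, and MCD after versus before PH from 2 to 1 without the filter and to 5 with only its arrays. C+Fc-GLP-1 after versus before PH went from 0 to 1 with normexp, and M+Fc-GLP-1 after versus before PH from 2 to 1 with only its arrays. The diet by Fc-GLP-1 interaction before PH went from 5 to 2 with normexp, 3 without the filter, 2 with the deposited values and 3 with only the arrays before PH.

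Reversed values were Cyp8b1 in C+Fc-GLP-1 versus C after PH, 0.34 with all arrays and -1.72 without C after PH replicate 1, whose own low value makes the difference, the range with 1 array left out being -1.72 to 1.18, and the endothelial marker Vwf in C after versus before PH, from 0.93 to -0.43 with the mean over its probes. Median centring also moved the median of all genes by 0.12 in MCD versus C after PH, -0.26 in M+Fc-GLP-1 versus C+Fc-GLP-1 before PH, -0.13 in M+Fc-GLP-1 versus MCD after PH, -0.11 in C+Fc-GLP-1 after versus before PH and 0.21 in the diet by time interaction. The share of spots well above background ran from 36.2 to 69.1 percent over the arrays, and with 4 livers in a group and bulk tissue, small differences, dim probes and cell types cannot be resolved.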
